A study of Mus musculus with 12 samples.

Results

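Acyl-CoA thioesterases (Acot genes) are the enzymes that split fatty acyl-CoA back into free fatty acid and CoA, and 10 of them were followed in the fasted mouse liver, namely Acot1, Acot2, Acot3, Acot4, Acot7, Acot8, Acot9, Acot11, Acot12 and Acot13. They were chosen by name from the 56748 genes of a deposited RNA-seq count table, and all 10 had enough counts to be tested in each comparison. The livers came from mice fasted for 24 h. There were 4 floxed controls (WT), 4 CPT2 liver-specific KO (SKO) and 4 ATF3;CPT2 liver-specific double KO (DKO) livers, each a separate library. The labels call the controls CPT1A/1B/2 triple floxed, so they carried floxed alleles of Cpt1a and Cpt1b that the labels do not give for the KOs. Per the methods of the study, liver KOs were made by breeding floxed mice on a C57BL6 background to Albumin-Cre mice. The albumin promoter is active mainly in hepatocytes, and which cells of these livers kept the genes was not tested. The Atf3 allele was derived from a C57BL/6N line. The labels give no age, sex, litter, batch or date for a liver, and do not say whether livers of a genotype were collected together, so p-values measure only the spread between these samples.

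Cpt2 carries out the last step of the carnitine shuttle, which brings long-chain fatty acids into mitochondria as acyl-CoA for beta-oxidation. Fasting sends fatty acids from adipose tissue to the liver, where acyl-CoA synthetases make acyl-CoA in the cytosol, and thioesterases undo that step in the cytosol, mitochondria and peroxisomes. The type I enzymes Acot1 to Acot4 are close relatives encoded side by side, and several of them are known as targets of the fatty acid-sensing nuclear receptor Ppara. The type II enzymes, such as Acot7, Acot8, Acot9, Acot11, Acot12 and Acot13, share a different fold and are encoded elsewhere.

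In the coordinates of the deposited table, Acot2 (chromosome 12, 84034635 to 84040647), Acot1 (84056264 to 84065145), Acot4 (84085153 to 84095375) and Acot3 (84098918 to 84107176) follow each other on the plus strand. Acot5 and Acot6, which are not among the 10 genes, lie just beyond them. The other members are on chromosome 4 (Acot7 and Acot11), chromosome 2 (Acot8), chromosome 13 (Acot12 and Acot13) and the X chromosome (Acot9). All 10 are listed as protein coding.

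The genes of chromosome 12 are so alike that short reads cannot always be told apart between them, and the longest run of bases that the Acot1 and Acot2 transcripts have in common is shown for that reason. It was read from the GENCODE M21 transcripts (GRCm38), is 273 bases long, and is coding in both genes, spanning coding bases 887 to 1159 of Acot1 and 1010 to 1282 of Acot2.
Acot1 and Acot2 shared run: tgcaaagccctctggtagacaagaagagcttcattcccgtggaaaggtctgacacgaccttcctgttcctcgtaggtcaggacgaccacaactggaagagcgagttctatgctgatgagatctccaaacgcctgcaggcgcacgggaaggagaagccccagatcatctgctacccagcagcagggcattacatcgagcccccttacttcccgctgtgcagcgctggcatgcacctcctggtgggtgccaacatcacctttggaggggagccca
Counted over stretches of 150 bases, 12.2% of those in Acot1 transcripts, 10.2% of those in Acot2 and 10.7% of those in Acot3 also occur in another gene, while no such stretch of the other 7 members does. With stretches of 50 bases the shares were 32.7% for Acot1, 27.7% for Acot2, 19.1% for Acot3, 4.74% for Acot4 and 20.2% for Acot9, whose partner is Acot10. No source gives the read length or how reads with several matches were counted. Values of Acot1, Acot2, Acot3, Acot4 and Acot9 are therefore uncertain to the extent that reads were split, dropped or counted for the wrong copy. A read-through gene, Gm49366, covers Acot4 and Acot3 on the same strand and is listed at 0 counts in every liver. The lncRNA 4732463B04Rik overlaps both on the opposite strand, and without a statement on strand its reads cannot be told apart from theirs. The same holds for the protein-coding genes Snx21, which overlaps Acot8 on the opposite strand, and Fam151a, which overlaps Acot11, and for noncoding genes or a pseudogene that overlap Acot7, Acot11 and Acot12 on the opposite strand.

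The 250 bases before the start of each chromosome 12 member are shown next, since these 4 neighbours include the most changed members. They are RefSeq promoter windows of GRCm38.p6, plus strand, in the order of the genes, with matches of 6 short motifs in capitals.
Acot2 chr12:83987611-83987860: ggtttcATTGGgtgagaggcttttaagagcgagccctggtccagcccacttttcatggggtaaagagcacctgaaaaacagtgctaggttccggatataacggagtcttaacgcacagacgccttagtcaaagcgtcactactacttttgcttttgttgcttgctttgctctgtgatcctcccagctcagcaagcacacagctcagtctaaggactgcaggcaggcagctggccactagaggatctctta
Acot1 chr12:84009252-84009501: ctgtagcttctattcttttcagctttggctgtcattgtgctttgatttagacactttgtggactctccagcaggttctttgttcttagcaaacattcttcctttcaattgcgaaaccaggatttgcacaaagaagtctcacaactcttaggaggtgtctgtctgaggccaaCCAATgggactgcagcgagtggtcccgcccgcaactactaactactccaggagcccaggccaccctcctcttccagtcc
Acot4 chr12:84038129-84038378: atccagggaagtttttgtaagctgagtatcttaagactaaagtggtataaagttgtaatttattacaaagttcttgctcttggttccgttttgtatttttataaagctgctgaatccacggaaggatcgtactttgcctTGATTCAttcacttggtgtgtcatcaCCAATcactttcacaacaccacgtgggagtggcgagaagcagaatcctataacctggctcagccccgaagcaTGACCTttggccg
Acot3 chr12:84051894-84052143: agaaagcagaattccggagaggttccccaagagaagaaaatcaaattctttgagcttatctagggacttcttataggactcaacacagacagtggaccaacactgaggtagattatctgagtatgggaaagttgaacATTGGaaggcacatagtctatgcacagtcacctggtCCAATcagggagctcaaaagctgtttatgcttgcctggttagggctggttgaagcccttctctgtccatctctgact
The motifs, read on both strands over windows that reach 50 bases past the start, were the DR1 element (the type bound by Ppara), its AGGTCA unit (which a DR1 match can contain), TGACGTCA (a cAMP response element), TGANTCA (an AP-1 element), TGATGNAA (an ATF4-type element) and CCAAT. Windows were found for 9 of the 10 members, all but Acot13. None of them held the DR1, cAMP response or ATF4-type letters, which occurred in 0.381%, 1.79% and 3.97% of all 32851 promoter windows. Only exact letters were searched, and letters this rare can be absent from 9 windows without meaning. The TGACCT of Acot4 and the bases after it came close to the DR1 letters without matching them. Near matches were not counted. The capitals in the lines above are CCAAT or its complement in all 4 genes, plus TGATTCA and TGACCT in Acot4. CCAAT was in the windows of 7 members against 37.4% of all windows, AGGTCA in 3 against 16.3%, and the AP-1 letters in 2 against 7.81%. The first base of a forward CCAAT lay 79 bases before the start in Acot1, 85 in Acot4 and 77 in Acot3 (84 from a second Acot3 start in RefSeq), whereas that of Acot2 was on the other strand and 244 bases away.

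Between 14710304 and 20030055 reads were counted per liver. Cpt2 was lower in both KOs, at 235 ± 25.0 CPM (counts scaled by library size, mean ± SD of 4 livers) in WT, against 125 ± 22.3 in SKO and 118 ± 11.3 in DKO. Atf3 had 17 to 39 counts in WT and 259 to 1056 in SKO livers, and DKO livers 1 to 4 had 164, 177, 265 and 5. Scaled by library size, Atf3 was 14.5 to 53.4 CPM in SKO and 0.27 to 13.6 CPM in DKO livers. These ranges did not overlap, and the difference was not called (log2 fold change -1.91 ± 0.73 SE, edgeR adjusted p = 0.70). Gene counts cannot show whether reads come from the deleted part. SKO 3 and DKO 4 stood apart from the other livers, with 18063 and 20855 Xist counts and 2 and 0 counts on Y-linked genes, against 1 to 19 and 2741 to 4294 elsewhere. The paper's text describes the RNA-seq mice as male. Leaving out DKO 4 raised the number of genes called between DKO and WT from 1510 to 5253, and values without these 2 livers are given where they change a call or move a value by much. The labelled tissue held its defining markers: the 10 hepatocyte markers summed to between 85903 and 106840 CPM in WT, between 47179 and 77085 in SKO and between 48593 and 109061 in DKO, and 5 of 10 were lower in SKO than in WT. Sums of 10 stellate cell markers lay between 199 and 229 CPM in WT, between 263 and 355 in SKO and between 248 and 318 in DKO, with 1 of 10 called higher in SKO and 0 in DKO. Sums of 8 cholangiocyte markers lay between 42.5 and 51.8 CPM in WT, between 20.9 and 27.1 in SKO and between 22.2 and 44.9 in DKO, with 2 of 5 tested called lower in SKO and 1 in DKO. Sums of macrophage, endothelial, lymphocyte, neutrophil and erythroid markers overlapped between WT and each KO, although 2 of 10 macrophage markers and 2 of 5 erythroid markers tested were higher and 1 of the latter lower in SKO. Between DKO and WT, 1 of 10 macrophage markers was higher and 1 lower. In that comparison 1 of 5 erythroid and 1 of 10 hepatocyte markers were lower. The part of these cell types in the members' values was not tested. In whole liver, fewer cells of a type and less RNA per cell cannot be told apart.

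In the SKO livers most of the family was higher than in WT. Of the 10 members 7 rose (Acot1, Acot2, Acot4, Acot8, Acot9, Acot12 and Acot13), Acot11 fell, and Acot3 and Acot7 did not pass the test. Acot2 rose 29.7-fold, Acot1 10.5-fold and Acot9 5.36-fold, and the other 4 rose between 1.54-fold and 2.31-fold. Over all 14261 genes tested 16.7% were called higher, 15.4% lower and 32.1% in either direction, so that calls were common in this comparison. The median log2 fold change was 1.05 over the 10 members and 0.031 over all genes tested. The SKO and WT livers did not overlap for 7 members, against 33.0% of all genes.

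**Figure D1:**
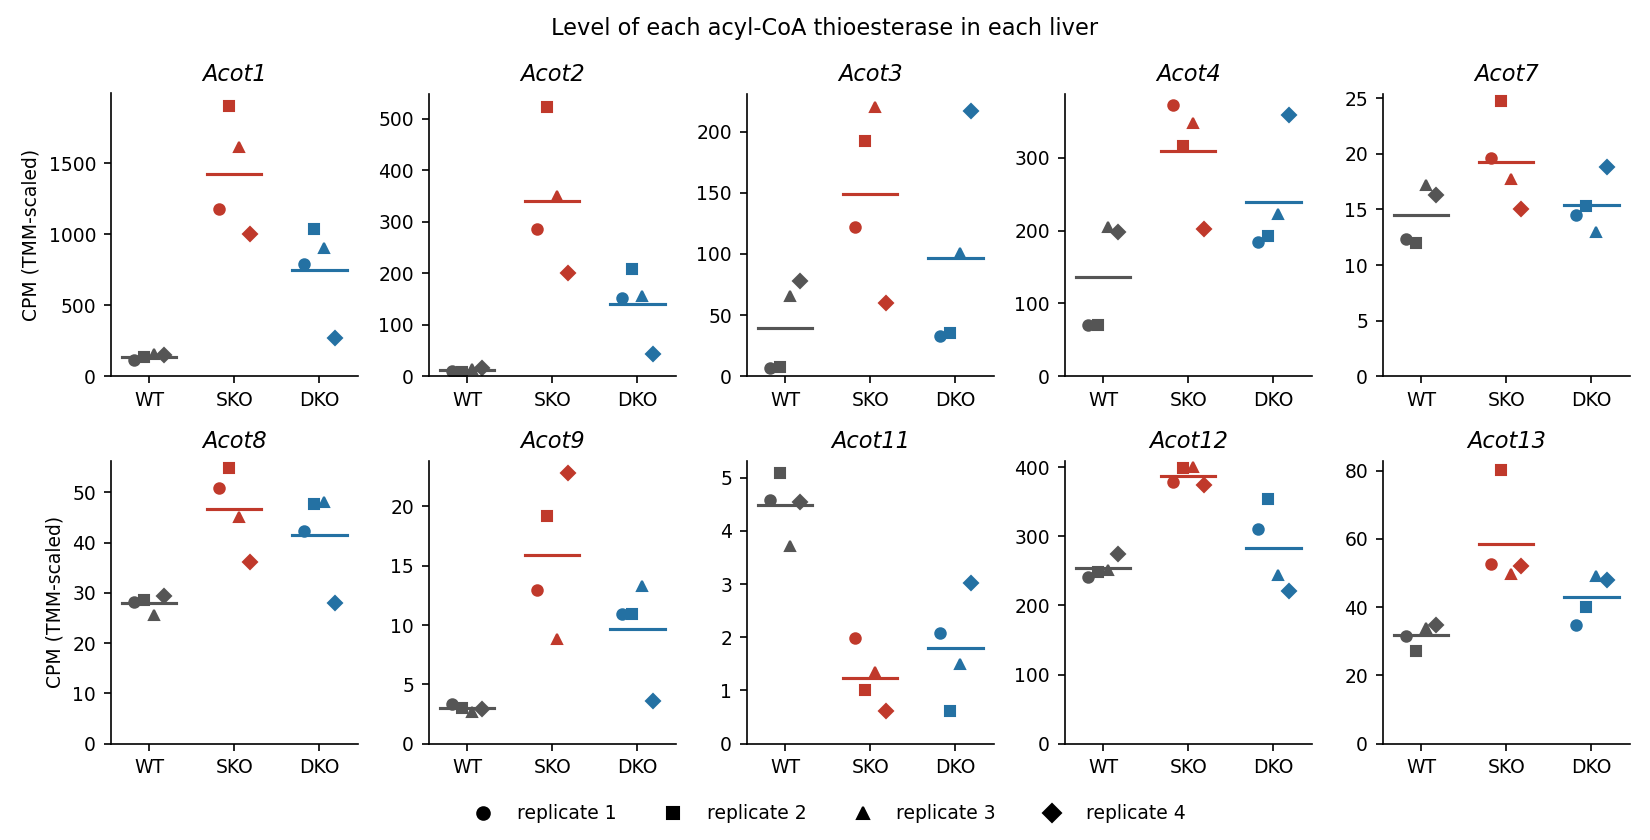
Level of each of the 10 members in each liver, in CPM scaled by TMM (y axes start at 0 and differ between panels); marker shapes give the replicate number and lines the group mean. Acot1 and Acot2 are low in all WT livers, Acot3 and Acot4 spread widely within WT and DKO, and DKO 4 (diamond) is the lowest DKO liver for Acot1, Acot2 and Acot9.

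Of the cytosolic members, Acot1 hydrolyses long-chain acyl-CoA. It had 2239, 2123, 2342 and 2645 counts in WT livers 1 to 4, and 18399, 37604, 31158 and 17963 in the SKO livers. Every SKO liver thus held more Acot1 than every WT liver, with a log2 fold change of 3.39 ± 0.22 (SE, adjusted p = 1.75e-06). Acot12, which acts on acetyl-CoA, was already abundant in WT livers at 241, 248, 252 and 275 CPM and reached 379, 399, 400 and 374 CPM in SKO livers. This was a smaller rise of 1.54-fold with little spread within either group (log2 fold change 0.63 ± 0.11, adjusted p = 0.00126). Acot7, the long-chain enzyme best known from brain, had 12.0 to 17.2 CPM in WT and 15.1 to 24.8 in SKO livers. The groups overlapped and the difference was not called (log2 fold change 0.43 ± 0.19, adjusted p = 0.0999). Acot11, also called Them1 and known for limiting fatty acid use in brown fat, had only 57 to 88 counts in WT and 31, 20, 26 and 11 in SKO livers. It was the one member that fell, to a level 3.59-fold lower without overlap of the groups (log2 fold change -1.84 ± 0.32, adjusted p = 0.00116).

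Of the mitochondrial members, Acot2 resides in the matrix and hydrolyses long-chain acyl-CoA there. Its counts were 176, 129, 209 and 277 in WT and 4453, 10346, 6764 and 3603 in SKO livers. The lowest SKO liver was far above the highest WT liver, and the log2 fold change of 4.89 ± 0.33 (adjusted p = 2.4e-06) was the largest of the family. Acot9, which takes both short and long substrates, had 2.67 to 3.38 CPM in the WT livers and 12.9, 19.2, 8.80 and 22.8 CPM in the SKO livers. The groups did not overlap (log2 fold change 2.42 ± 0.28, adjusted p = 7.8e-05), and Acot9 had at most 409 counts in a liver. Acot13, also called Them2 and associated with mitochondria, had 31.6, 27.2, 34.0 and 34.8 CPM in WT and 52.8, 80.2, 49.7 and 52.0 CPM in SKO livers. SKO 2 lay well above the other SKO livers, and all 4 were above WT (log2 fold change 0.89 ± 0.17, adjusted p = 0.00185).

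Of the peroxisomal members, Acot8 has a broad substrate range, and its CPM was 28.2, 28.6, 25.6 and 29.4 in WT and 50.8, 54.8, 45.0 and 36.2 in SKO livers. All SKO livers were higher (log2 fold change 0.76 ± 0.14, adjusted p = 0.00173). Acot4, which acts on succinyl-CoA and other dicarboxylyl-CoA, had 70.6, 69.7, 204 and 198 CPM in WT and 373, 316, 348 and 202 CPM in SKO livers. The groups overlapped, since SKO 4 was level with WT 3 and WT 4. Its rise (log2 fold change 1.21 ± 0.36, adjusted p = 0.0231) was not called when WT 1, WT 2, SKO 1 or SKO 2 was left out, with adjusted p from 0.0509 to 0.0617. Acot3, a long-chain enzyme, had 6.61, 7.32, 65.7 and 78.1 CPM in WT and 122, 192, 220 and 59.5 CPM in SKO livers. The highest WT liver was above the lowest SKO liver, and the value of 1.93 ± 0.72 on the log2 scale was not called (adjusted p = 0.0597). It was called when WT 4 was left out (adjusted p = 0.0362) and when genes with low counts were kept in the fit (adjusted p = 0.000485). A fit with the replicate number as a block also called it (adjusted p = 0.0298). In 11 of 14 alternatives it stayed uncalled, with adjusted p up to 0.130.

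**Figure D2:**
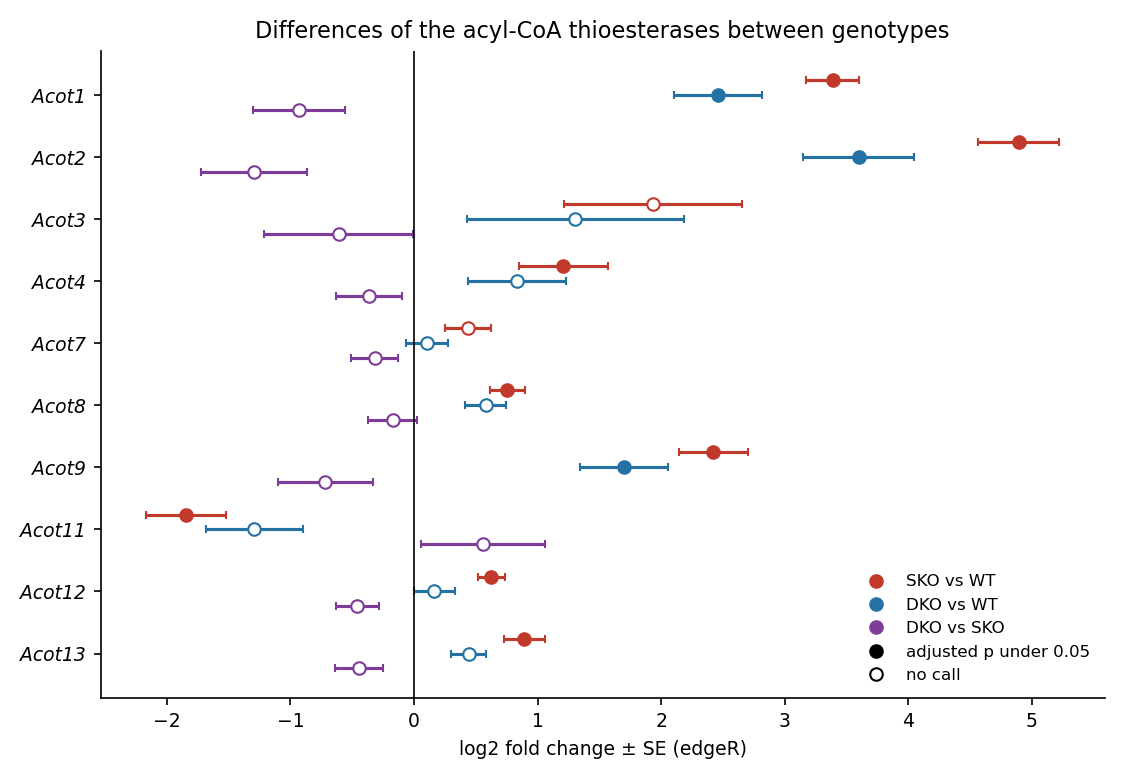
Log2 fold change of each member from edgeR with its SE (x axis) in the 3 comparisons; filled points have an adjusted p under 0.05. All members except Acot11 lie right of 0 against WT, and no point of the DKO vs SKO comparison is filled.

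In the DKO livers, compared with the same 4 WT livers, fewer members were called. Acot1 rose 5.50-fold (log2 fold change 2.46 ± 0.36, adjusted p = 0.0089), Acot2 12.1-fold (3.60 ± 0.45, adjusted p = 0.0058) and Acot9 3.25-fold (1.70 ± 0.35, adjusted p = 0.0214). None of the 10 was called lower. Acot11 was 2.45-fold lower without overlap of the groups (log2 fold change -1.29 ± 0.39, adjusted p = 0.0636), and this was called with DESeq2 (adjusted p = 0.0101) and when genes with low counts were kept (adjusted p = 0.0466). Acot8 was at 0.58 ± 0.17 (adjusted p = 0.0541) and was called with DESeq2 (adjusted p = 0.0359) and in a fit of all 12 livers (adjusted p = 0.0498). Acot11 and Acot8 each stayed uncalled in 10 of 14 alternatives, with adjusted p up to 0.163 and 0.144. Over all 14448 genes tested 6.06% were called higher, 4.39% lower and 10.5% in either direction, and the median log2 fold change was 0.71 over the members and 0.030 over all genes. Livers of the 2 groups did not overlap for 4 members, against 16.9% of all genes. The call of Acot9 was lost, at an adjusted p of 0.0548 to 0.0693, when any liver other than DKO 4 was left out. It was also lost in a fit with the replicate number as a block (adjusted p = 0.0516).

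DKO 4 stood apart from the other DKO livers for several members. Acot1 had 16292, 17104, 17617 and 5021 counts in DKO livers 1 to 4, and Acot2 had 3125, 3420, 3037 and 784. In DKO 4 both were above every WT liver and far below the other DKO livers. DKO 4 also stood apart for the hepatocyte marker Alb (albumin), at 75234 CPM against 24988 to 28504 CPM in the other DKO and 51889 to 65487 CPM in WT livers, and the part of this in the members' values was not tested. Acot9 had 226, 180, 258 and 67 counts, so that DKO 4 was barely above the highest WT liver at 65 counts. Without DKO 4, 6 members were called, 5 higher and 1 lower: Acot8 joined at a log2 fold change of 0.73 (adjusted p = 0.000193), Acot13 at 0.38 (adjusted p = 0.0487) and Acot11 at -1.65 (adjusted p = 0.00386). Calls grew more common over all genes as well, with 18.4% called higher, 17.5% lower and 35.9% in either direction without DKO 4. Acot12 kept WT-like values in part, with 311, 354, 245 and 221 CPM in DKO against 241 to 275 in WT livers. Its difference from WT was not called (log2 fold change 0.17 ± 0.16, adjusted p = 0.53).

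The DKO and SKO livers differ in the Atf3 allele, and no member was called between them. The threshold was passed by 3 of 14363 genes, of which 0.00696% of all tested were higher, 0.0139% lower and 0.0209% in either direction, so edgeR called few genes of any kind. DESeq2 called 91 genes and again 0 members. In 9 of 10 members the value was below 0, with a median log2 fold change of -0.45 over the members and 0.0086 over all genes. Before adjustment 4 members had a p under 0.05 (Acot2 at 0.0127, Acot12 at 0.0252, Acot1 at 0.0309 and Acot13 at 0.0465), as did 6.49% of all genes, and after adjustment these were at 0.62 to 0.75. Livers did not overlap for Acot12 and Acot13, both lower in DKO, against 4.00% of all genes. Acot12 was 374 to 400 CPM in SKO and 221 to 354 CPM in DKO livers (log2 fold change -0.46 ± 0.18), and Acot13 was 49.7 to 80.2 CPM in SKO and 34.7 to 49.3 CPM in DKO livers (-0.44 ± 0.20). For Acot1 and Acot2 the values were -0.93 ± 0.37 and -1.30 ± 0.43, and for Acot11, the one member above 0, 0.56 ± 0.50. Without SKO 3 and DKO 4 the log2 fold change was -0.59 for Acot1, -0.98 for Acot2 and 0.23 for Acot11. It then moved away from 0 for Acot3 (from -0.61 to -1.15), Acot4 (from -0.36 to -0.58) and Acot7 (from -0.32 to -0.48) and towards 0 for Acot8 (from -0.17 to -0.046), and none of these was called. The comparisons with WT share the WT livers, and those with SKO or DKO share these, so their values are not independent of each other.

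Levels can be compared between genes after division by the gene length that the table gives. In CPM per kilobase, Acot12 was the most abundant member of WT livers (77.2 ± 4.41, SD, n = 4), above Acot13 (42.9 ± 4.59) and Acot1 (35.1 ± 4.06), whose livers overlapped with each other. Acot4 (20.3 ± 11.4), Acot8 (14.0 ± 0.812), Acot3 (11.5 ± 11.0), Acot7 (6.81 ± 1.26) and Acot2 (5.27 ± 1.57) formed a run in which each overlapped with the next. Acot9 (1.32 ± 0.129) and Acot11 (0.740 ± 0.0936) were lowest and did not overlap with their neighbours. In SKO livers Acot1 came first (363 ± 105), above Acot2 (155 ± 62.3), which had moved from the eighth place in WT to the second and overlapped with Acot12 (118 ± 4.12). In DKO livers the order was Acot1 (192 ± 85.7), Acot12 (85.9 ± 18.5) and Acot2 (63.4 ± 31.6), all with overlapping livers. The order of all 10 was the same with the deposited FPKM in each genotype.

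Summed over the 10 members, the level per length had a mean of 215 ± 35.5 CPM per kilobase (SD, n = 4) in the WT livers. It was 844 ± 211 in the SKO and 495 ± 100 in the DKO livers. All SKO livers (614 to 1104) and all DKO livers (362 to 596) were above all WT livers (184 to 251), and the highest DKO liver was just under the lowest SKO liver. The 4 genes of chromosome 12 supplied between 25.2 and 39.6% of the sum in a WT liver, between 64.3 and 75.5% in an SKO liver and between 56.7 and 67.4% in a DKO liver. By the compartment in which each enzyme is known to reside, members of the cytosol made up 56.4 ± 5.73% of the WT sum, 58.4 ± 2.45% of the SKO sum and 56.1 ± 10.9% of the DKO sum. Mitochondrial members made up 23.2 ± 1.99%, 28.2 ± 2.85% and 25.2 ± 1.20%, and peroxisomal members 20.4 ± 6.88%, 13.3 ± 2.44% and 18.7 ± 11.8%. The sum was higher in both KOs, while the shares of the compartments overlapped between genotypes. These shares were chosen after the values had been seen and were not tested.

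**Figure D3:**
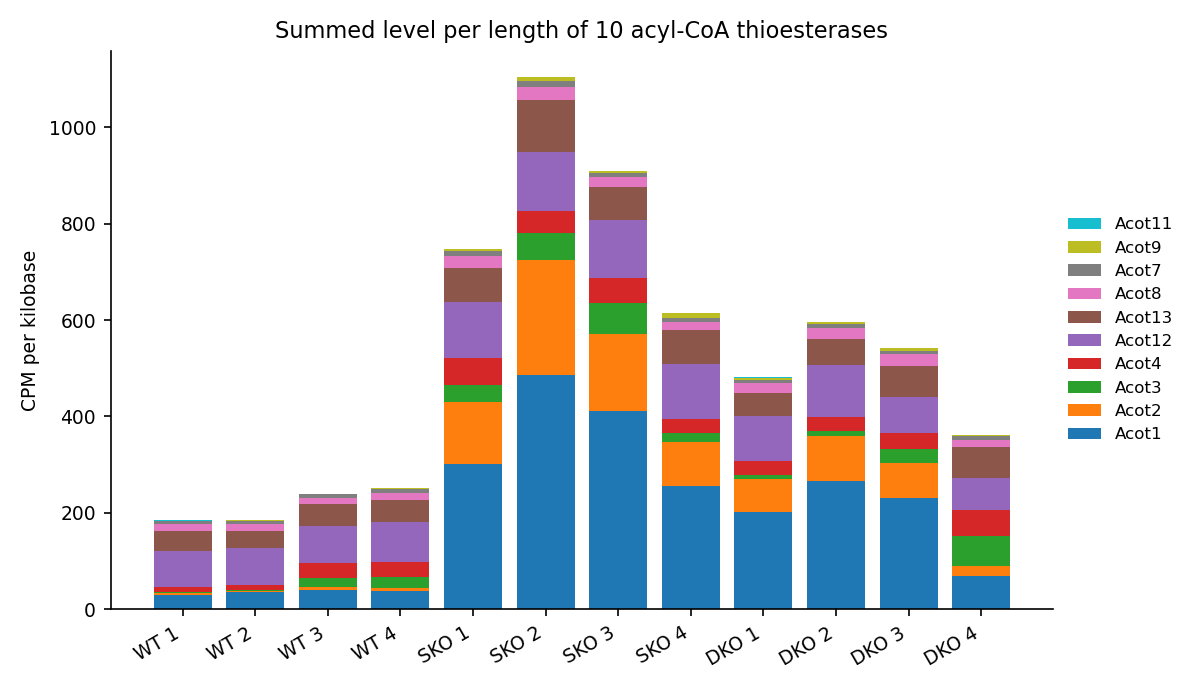
Summed level per length (y axis, CPM per kilobase) of the 10 members in each liver, stacked by gene. WT livers sum to 184 to 251, SKO livers to 614 to 1104 and DKO livers to 362 to 596, and the lower blocks, Acot1 and Acot2, make most of the difference from WT in each KO liver except DKO 4.

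The counts of Acot2 relative to those of its neighbour Acot1 differed between genotypes. For each Acot1 count there were 0.0786, 0.0608, 0.0892 and 0.105 Acot2 counts in WT livers 1 to 4, and 0.242, 0.275, 0.217 and 0.201 in SKO livers. In DKO livers the ratio was 0.192, 0.200, 0.172 and 0.156. WT livers did not overlap with the others, and the DKO livers lay just below the SKO livers. The mean log2 ratio differed by 1.51 between SKO and WT, by 1.13 between DKO and WT and by -0.37 between DKO and SKO. This ratio was chosen after its values had been seen and is given without a test, and how reads that match both genes were counted is not known.

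Acot3 and Acot4 followed another pattern, in which livers of a genotype fell apart. Acot3 counts were 127 and 115 in WT 1 and WT 2 but 1007 and 1413 in WT 3 and WT 4, and 673, 585, 1957 and 4012 in DKO livers 1 to 4. Acot4 counts were 1357, 1096, 3134 and 3584 in the WT livers and 3808, 3180, 4333 and 6633 in the DKO livers. DKO 4 was thus the highest DKO liver for both, and it is 1 of the 2 livers with high Xist counts. In SKO 3, the other of these, Acot3 was the highest of the SKO livers and Acot4 was not, at 348 CPM against 373 CPM in SKO 1. In contrast DKO 4 was the lowest DKO liver for Acot1, Acot2, Acot8, Acot9 and Acot12, of which only Acot9 was lowest in SKO 3 among the SKO livers. There were 0.0936 and 0.105 Acot3 counts for each Acot4 count in WT 1 and WT 2, and 0.321 and 0.394 in WT 3 and WT 4. No WT liver had over 19 Xist counts. Between DKO and WT, Acot3 was at a log2 fold change of 1.30 ± 0.88 (adjusted p = 0.36) with all livers and 0.52 without DKO 4, and Acot4 at 0.83 ± 0.40 (adjusted p = 0.20) with all livers and 0.57 without it. Between SKO and WT, Acot3 was at 1.69 without SKO 3 (adjusted p = 0.11), and none of these values was called.

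**Figure D4:**
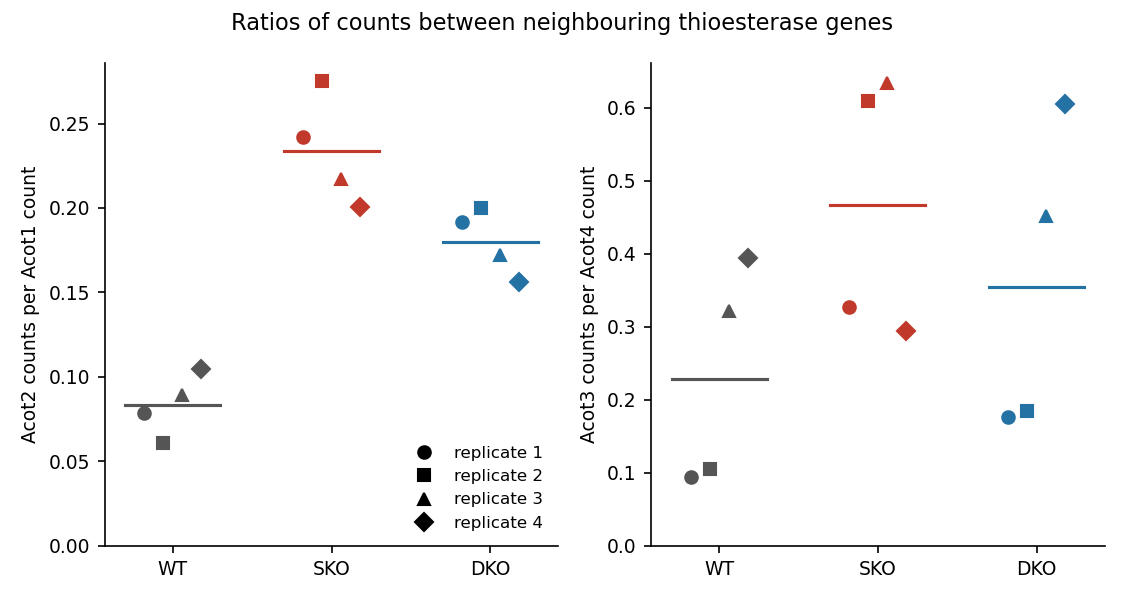
Acot2 counts per Acot1 count (left) and Acot3 counts per Acot4 count (right) in each liver, both axes from 0, with marker shapes for the replicate number and lines for group means. The left ratio separates WT (0.0608 to 0.105) from SKO (0.201 to 0.275) and DKO (0.156 to 0.200), while the right one varies within every genotype.

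Genes beside the chromosome 12 cluster were compared as well. Within 150 kb of the cluster the table lists 25 genes, of which 11 were tested between SKO and WT. Besides the 4 members these included Acot6, which rose 3.00-fold (log2 fold change 1.58 ± 0.30, adjusted p = 0.00197) with 15 to 43 counts in a WT liver and 63 to 93 in an SKO liver. Of the 50-base stretches of Acot6, 3.77% also occur in another gene of the cluster, so with so few counts its value is uncertain in the same way. Acot3 within the cluster was not called, nor were the other 6, while 32.1% of all genes were called in either direction. The other 6 were Numb (0.16 ± 0.12), Riox1 (0.52 ± 0.22), the overlapping 4732463B04Rik (0.81 ± 0.48), Dnal1 (-0.45 ± 0.31), Mideas (0.59 ± 0.22) and Gm5436 (0.29 ± 0.35), with adjusted p from 0.0570 to 0.57. These neighbours were chosen by position.

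**Figure D5:**
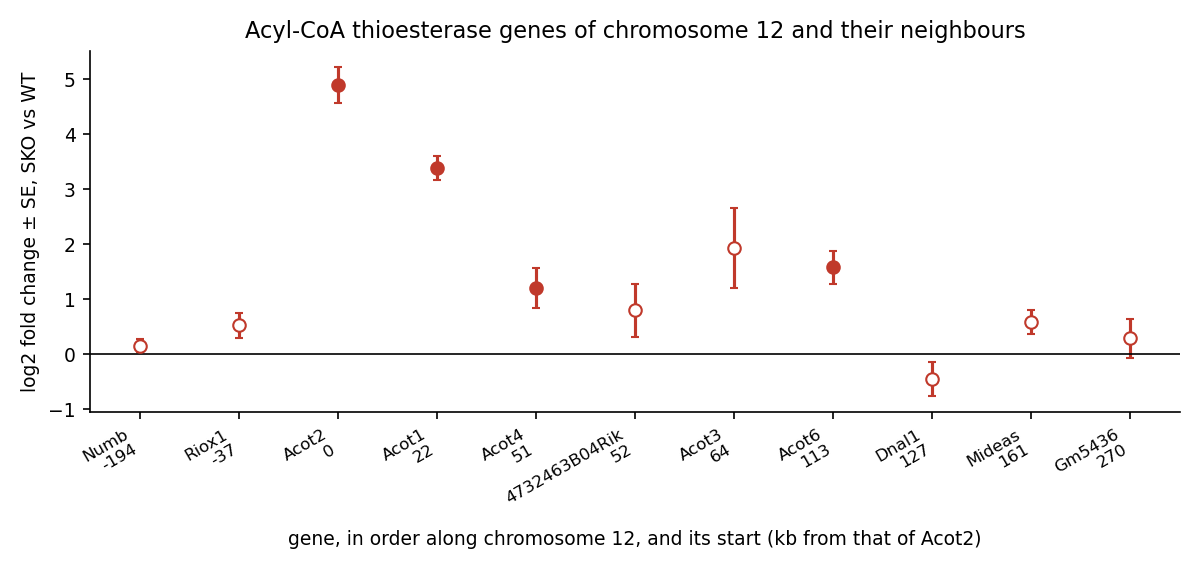
Log2 fold change between SKO and WT livers with its SE (y axis) for the tested genes within 150 kb of the chromosome 12 thioesterase genes, in order along the chromosome, with each start in kilobases from that of Acot2. Filled points, with an adjusted p under 0.05, are Acot2, Acot1, Acot4 and Acot6.

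Other thioesterases, which hydrolyse acyl-CoA or acyl groups on proteins, were compared as well. Of the 16 listed genes of this kind, 12 were tested, and between SKO and WT 1 was higher (Acot6, 8.33%) and 2 were lower (16.7%), against 16.7% and 15.4% of all genes, with a median log2 fold change of -0.20. Baat, which joins bile acids to amino acids and can also act as a thioesterase, fell from 340 ± 15.6 CPM in WT to 140 ± 40.0 in SKO livers (2.40-fold lower, adjusted p = 0.000339), and Lypla1, which removes acyl groups from proteins, fell 1.47-fold (adjusted p = 0.0095). Not called were Them4, Them6, Ppt1, Ppt2, Lypla2, Lyplal1, Abhd17a, Abhd17b and Abhd17c, with log2 fold changes from -0.56 to 0.099. Between DKO and WT, Acot6 was higher (1.38 ± 0.31, adjusted p = 0.0269) and Baat lower (-0.83 ± 0.13, adjusted p = 0.0104), against 6.06% of all genes higher and 4.39% lower, and none was called between DKO and SKO. Acot5, with at most 2 counts in a WT liver, 6 to 36 counts in an SKO liver and 2 to 11 in a DKO liver, and Acot10, Them5 and Olah, with at most 3 counts in a liver, had too few counts to test. For such genes a count of 0 still allows 3 counts, or 0.150 to 0.204 CPM, from counting error alone.

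The enzymes that make acyl-CoA, the reverse step, did not move together in SKO livers. The counts that follow stand against 16.7% of all genes called higher and 15.4% lower between SKO and WT. Of 18 acyl-CoA synthetases tested 5 rose and 5 fell (median log2 fold change 0.036), with Slc27a4 3.08-fold and Acsf3 1.86-fold higher, and Acsm1 4.35-fold and Acss2 2.22-fold lower. Of 9 genes of the carnitine shuttle 5 rose and 2 fell. The carnitine transporter Slc22a5 rose 3.15-fold, the carnitine acetyltransferase Crat 3.10-fold and Cpt1b 7.41-fold, and Cpt2 itself fell 1.85-fold. Of 14 genes of CoA synthesis and breakdown 3 rose (21.4%) and 1 fell (7.14%), which is not far from the shares over all genes. They were Ppcs, an enzyme of CoA synthesis (2.77-fold higher), Vnn1, which breaks down pantetheine (1.85-fold higher), the vitamin transporter Slc5a6 (1.60-fold higher) and the CoA carrier Slc25a16 (1.48-fold lower).

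Known targets of Ppara, a list that holds none of the 10 members, rose in 35 of 47 cases and fell in none between SKO and WT, with a median log2 fold change of 0.92. Fabp3, a fatty acid-binding protein, rose 178-fold, Pdk4, a kinase of pyruvate dehydrogenase, 93.0-fold, and the lipid droplet proteins Cidec and Plin2 20.2-fold and 8.87-fold. Fabp3 had too few counts to be tested between DKO and WT, so its fold stands on a low WT level and is uncertain. Of 21 genes of peroxisomal oxidation 9 rose and 7 fell, with Ehhadh 6.64-fold and Acaa1b 4.71-fold higher and Pecr 5.57-fold and Phyh 1.91-fold lower. Of 18 genes of the Atf4 response 12 rose and 1 fell, with Fgf21 22.6-fold, Gdf15 18.1-fold, Psat1 13.4-fold and Slc3a2 3.83-fold higher. Over all genes 6.06% were called higher and 4.39% lower between DKO and WT. Against WT, the DKO livers had 15 of 45 Ppara targets, 2 of 21 peroxisomal genes, 8 of 18 Atf4 genes, 3 of 9 carnitine genes, 1 of 18 synthetases and 1 of 14 CoA genes higher, and 2 peroxisomal genes, 1 carnitine gene, 1 synthetase and 1 CoA gene lower. The Ppara targets (33.3% higher), Atf4 genes (44.4%) and carnitine genes (33.3%) were above the share over all genes, while the synthetases (5.56%), CoA genes (7.14%) and peroxisomal genes (9.52%) were near it. No gene of these lists was called between DKO and SKO, including, among those nearest to the threshold in their list, Acsm1, Slc27a1, Slc22a5, Crat, Slc5a6, Ppcs, Fitm2, Abcd3, Slc3a2 and Atf3. The summed level of 8 adipocyte markers, a list that includes genes of fat storage, also differed, between 13.0 and 18.5 CPM in WT, between 50.8 and 108 in SKO and between 22.3 and 46.6 in DKO. Only 2 of them (Fabp4 and Pparg) could be tested, both were higher in SKO and in DKO than in WT, and Lep was at 0 in every liver.

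Genes whose log2 CPM followed a member most closely over the 12 livers were picked from those with a mean of at least 5 CPM. For Acot1 they were Crat (Pearson r = 0.985), Psmd9 (0.982) and Det1 (0.982), and for Acot2 Crat (0.982), Pex11a (0.982) and Det1 (0.980). Acot4 was followed by Nfe2l1 (0.911), Slc16a5 (0.906) and Idh2 (0.871), and Acot8 by Rassf1 (0.964), Vars (0.962) and Pisd (0.960). For Acot9 they were Grwd1, Syt12 and Tmem65 (each 0.981), and for Acot11 Slc12a7 (0.958), Mms19 (0.954) and Brd3 (0.953). Acot12 was followed by Sf3b4 (0.966), Acad11 (0.957) and Zwint (0.951), and Acot13 by Mfge8 (0.949), Ndufab1 (0.942) and Ppie (0.933). These 12 points share genotype and library, so the values are a description without a test.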

How the data were processed

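Liver RNA was purified with TRIzol and RNeasy columns and was made into libraries and sequenced by Novogene. The authors deposited raw read counts per Ensembl gene for 12 livers, which were used for all tests, and FPKM values, which were used as an alternative scale. The submitters' processing notes name HISAT2 and the builds GRCm38 and mm10, while the gene starts of the deposited table equal those of GRCm38 in only 2.78% of 52036 genes, so its coordinates belong to another build, taken to be GRCm39. The counting program, annotation release, strandedness and read length are not given in the sources used here. Deposited tables of the authors' own fold changes and p-values were not used.

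Groups were taken from the genotype labels. Each pair of genotypes was compared within its 8 livers by edgeR 4.0.16 (TMM, filterByExpr, quasi-likelihood test, two-sided) in R 4.3.3, with Benjamini-Hochberg adjustment over all genes tested and a threshold of 0.05. The SE of a log2 fold change was derived from this test, as its absolute value divided by the square root of the F statistic. The fits were tested on simulated data. CPM was scaled by TMM over 12 livers, with a prior count of 2 for log2 values, and was divided by the deposited gene length for levels per length. Depth was 14710304 to 20030055 counts per liver. Floors cover counting error only, while each SD or SE includes the spread between livers. Shared stretches and motifs were searched in GENCODE M21 transcripts and RefSeq promoter windows.

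The members, lists and tests were chosen with earlier results of these data known. Named were all members, Cpt2 and Atf3, all other listed thioesterases, up to 4 genes of each further list with the smallest p between SKO and WT and up to 2 between DKO and SKO, and for each member called between SKO and WT the 3 most alike genes. Genes beside the chromosome 12 cluster, Gm49366, Fabp4 and Pparg were named after their values were seen, as were the count ratios and compartment shares chosen. A pair of listed genes was not in the table, and a gene that this rule names is not reported here. Alternatives were DESeq2 1.42.0, RLE scaling, no filter, a 12-liver fit, a replicate block, leaving out each liver, and only livers with Y-linked counts, and leaving out livers for the Acot2 to Acot1 ratio was added after seeing the data.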

Additional observations from a re-analysis of the deposited data

Results flagged for a closer look

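One value stood out within its genotype. Acot13 reached 80.2 CPM in SKO 2, while the other SKO livers had 49.7 to 52.8 CPM. The gap to its nearest neighbour was 0.900 of the range of the group, above Dixon's critical value for 4 samples. Of 36 groups examined about 1 in 20 would be marked by chance. SKO 2 was also the highest SKO liver for Acot1, Acot2, Acot7 and Acot8.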

How the results depend on the processing

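Between SKO and WT, 7 to 9 members were called under every alternative and no value changed direction. Between DKO and WT, the 3 members and 1510 genes called became 5 and 2509 with DESeq2, 6 and 5253 with only the livers that had Y-linked counts, and 691 genes with the replicate block, and leaving out 1 liver gave 2 to 6 members and 244 to 5253 genes. Between DKO and SKO, the 3 genes called became 91 with DESeq2, 35 without the filter, 21 with the livers that had Y-linked counts, 0 with the replicate block and 0 to 15 when 1 liver was left out, with 0 members called throughout. Acot7, at 0.11 on the log2 scale between DKO and WT, ranged from -0.0068 to 0.20 when 1 liver was left out, the lowest without DKO 4, which is also what the livers with Y-linked counts gave. The causes were not tested.

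The main fits did not pair livers by the numbers in the titles. Same-numbered livers deviated from their group means with correlations of -0.34 to 0.093. With so few livers and no litter, batch or date in the labels, this cannot exclude a pairing. Under the replicate block Acot3 was called between SKO and WT (adjusted p = 0.0298) and between DKO and WT (1.66 on the log2 scale, adjusted p = 0.0367, against 0.36 without the block), and Acot9 was not called between DKO and WT (adjusted p = 0.0516). Acot11 rested on at most 88 counts in a liver.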
